A study of Homo sapiens with 3 samples.

Results

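The comparison described here is that of RNA 3′ ends captured after 60 min with those captured after 30 min of labelling with 4-thiouridine (4sU) in the established cell line HEK293T, of human embryonic kidney. 4sU is a uridine analogue that cells build into the RNA they make, so that labelled RNA can be pulled out of the total. The ends of the captured RNA were then read by 2P-seq, which sequences mRNA where the poly(A) tail begins. The treatment label gives 1000 mM 4sU for both times, and the labels name no other treatment or genotype. Each time had 1 library, so no difference has a replicate check and no p-value is given. The remaining library of the series, the input of the 30 min labelling, is used only where it is named.

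Neighbouring positions of a strand were joined into sites, each being 1 place where RNA ended. Of 557265 nuclear sites in the 2 4sU libraries, 11215 had a mean CPM of at least 10, CPM being a site's count scaled to the library's nuclear total. Of these, 372 had 90% or more of their counts at 1 position and were left out by rule, which left 10843 sites, against 779809 nuclear sites over the 3 libraries of the series. The 30 min library held 9652023 nuclear counts and the 60 min library 6151986, and the kept sites took 82.0% of them at both times. Sites carry names where their numbering, which fits the human build hg19, put them at the 3′ end of a gene on its own strand. Of 249 listed genes, 246 had a site within 1500 nt of the end in question, and all 223 neighbouring pairs of them lay in the same order as in RefSeq. This order follows the ends around which sites were sought, so it cannot show that each site belongs to its gene. The markers of HEK293-type cells LIN28B and NEFM had kept sites at 21.8 and 25.9 CPM at 30 min, PAX2 reached 1.45 CPM. Of 4 markers of other cell types, HBB had 4.56 CPM at 30 min and 3.74 at 60 min, ALB and COL1A1 were under 1 CPM at both times, and PTPRC had no count.

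As background, a labelled pool taken early is made of molecules that have only just been finished, and with more time it gathers those that last. Short-lived mRNAs, such as those of many transcription factors and feedback regulators, are known to turn over within the time of such a labelling, while mRNAs of ribosomal proteins and of energy metabolism are known as long-lived. Many human genes also have more than 1 poly(A) site, so that their mRNAs differ in the length of the 3′ untranslated region.

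Before centring, the median site had a ratio of 60 to 30 min of 0.813. All ratios below are divided by it, so that a site above 0 on the log2 scale gained against the median site. Calls of higher or lower needed a difference of 2-fold or more from the median, outside an exact 95% interval. The interval covers counting error of reads only and leaves out the spread between libraries. Amplification can read 1 molecule several times, so the interval can be too narrow for counts of molecules. At 60 min 742 sites were higher, which is 6.84% of the kept sites, and 802 were lower, which is 7.4%. Without centring, 339 were higher and 1625 lower. The middle 90% of sites lay between -1.14 and 1.12 on the log2 scale. Changes of 4-fold or more were found at 48 sites that were higher and 37 that were lower. The sites that were higher took 9.91% of nuclear counts at 30 min and 18.9% at 60 min, or 6.09% and 12.0% without a single CENPB site, while those that were lower took 3.55% and 1.19%. The median CPM was 28.5 for sites called higher and 19.0 for sites called lower. No kept site was without counts in either library.

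The ratio went with abundance. The median log2 ratio was -0.09 over 4122 sites of 10 to 20 CPM, 0.17 over 1143 sites of 100 to 300 CPM and 0.60 over 77 sites of at least 1000 CPM. Among the 371 sites of at least 300 CPM, 54 were higher and 1 was lower. The short-lived regulators, ribosomal protein, glycolysis and respiratory chain genes are therefore set beside sites of like abundance below; the other lists are not.

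**Figure D1:**
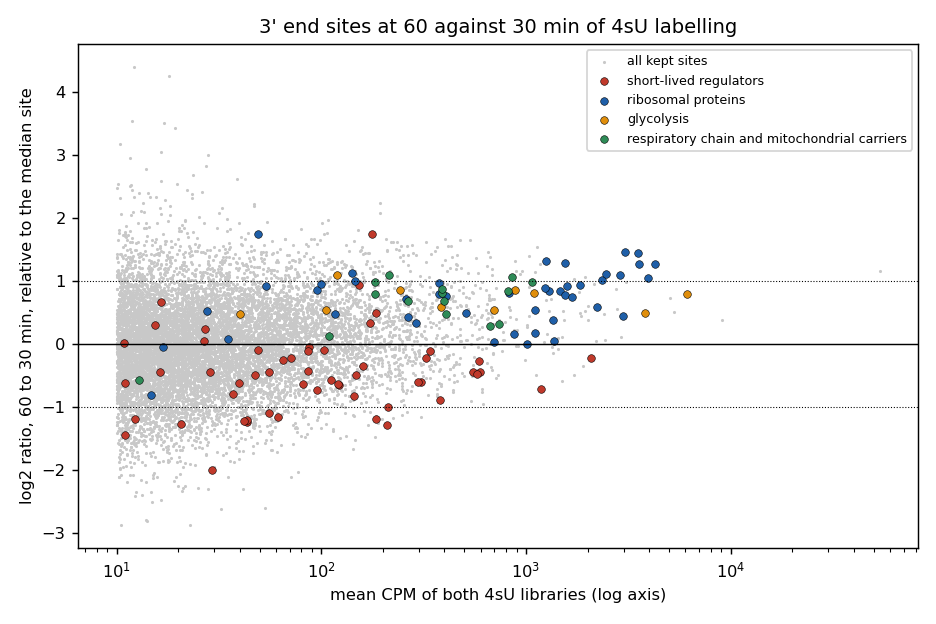
Each grey point is 1 of the 10843 kept sites, with its mean CPM of both 4sU libraries on a log axis and its log2 ratio of 60 to 30 min relative to the median site; coloured points are genes of 4 lists, and dotted lines mark 2-fold. The cloud tilts upward with abundance, short-lived regulators lie mostly below 0, and 42 of 45 ribosomal protein genes lie above it.

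Short-lived regulators, a list of transcription factors, growth-arrest genes and feedback inhibitors, lay mostly below the median site, and a minority of them was called lower at 60 min. Each gene of this and the other lists was scored on its highest site within 1500 nt of the end in question, which can miss its main end. IRF2BP2 was scored on an end with 675 of the 8952 counts of its locus at 30 min. CCNL1 was under the CPM limit on a site of 37 counts at 30 min, while its locus held 878. Of 65 listed genes 54 had a kept site, 9 were under the CPM limit at the scored site and 2 had no count. Of the 54, 45 lay below the median site, 11 were called lower and 1 was called higher, with a median log2 ratio of -0.48. That is 20.4% called lower, against 7.4% of all kept sites. This list and the others were chosen with earlier results of these data known, so their shares are not independent of those results. Without centring 17 were lower and 1 was higher. The list's 29 genes under 100 CPM had a median of -0.49 and its 23 genes of 100 to 1000 CPM one of -0.48, while all kept sites of these ranges had medians of -0.04 and 0.19.

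HEXIM1, which inhibits the elongation factor P-TEFb, had the lowest ratio of the list. Its site was at 48.7 CPM at 30 min and 9.92 CPM at 60 min, 3.99-fold lower relative to the median. KLF4, a zinc finger transcription factor, went from 16.9 to 5.04 CPM and had a log2 ratio of -1.45. HES1, the repressor downstream of Notch, was far better covered, at 314.5 CPM at 30 min and 105.0 at 60 min, a ratio of 0.411 (0.377 to 0.447). The log2 ratio of JUNB, a subunit of the AP-1 transcription factor, was -1.27, at 30.9 and 10.4 CPM. The antiproliferative TOB1 and the phosphatase subunit PPP1R15A both stood at 64.2 CPM at 30 min, and at 22.3 and 22.8 CPM at 60 min. The kinase genes PIM1 and PIM3 had log2 ratios of -1.21 and -1.20. The matricellular growth factors CTGF and CYR61 and the inhibitor of differentiation ID1 made up the rest of the 11, at -1.18, -1.15 and -1.09.

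MCL1, an inhibitor of apoptosis, and MYC did not reach 2-fold relative to the median site, but both were called lower without centring. MCL1 was at 299.5 CPM at 30 min and 122.6 at 60 min, a ratio of 0.503 (0.464 to 0.546) and -0.99 on the log2 scale. MYC was at 527.9 and 231.0 CPM, with a log2 ratio of -0.89. JUN stood at 748.0 and 445.1 CPM, and its log2 ratio was -0.45. The list was not uniform. The immediate early genes FOS, FOSB and EGR1 had log2 ratios of 0.68, 0.31 and 0.24, on 14.4, 15.3 and 27.6 CPM at 30 min. None was called, and those of FOSB and EGR1 did not differ from the median site beyond counting error. The cyclin-dependent kinase inhibitor CDKN1A was at 0.33 and the cyclin CCNL2 at 0.93. SOX12, the 1 gene called higher, was scored on its downstream end, with 918 of the 5902 counts of its locus at 30 min. Its upstream end, which held more counts, had a ratio of 1.04 and was not called. Both ends are described below.

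**Figure D2:**
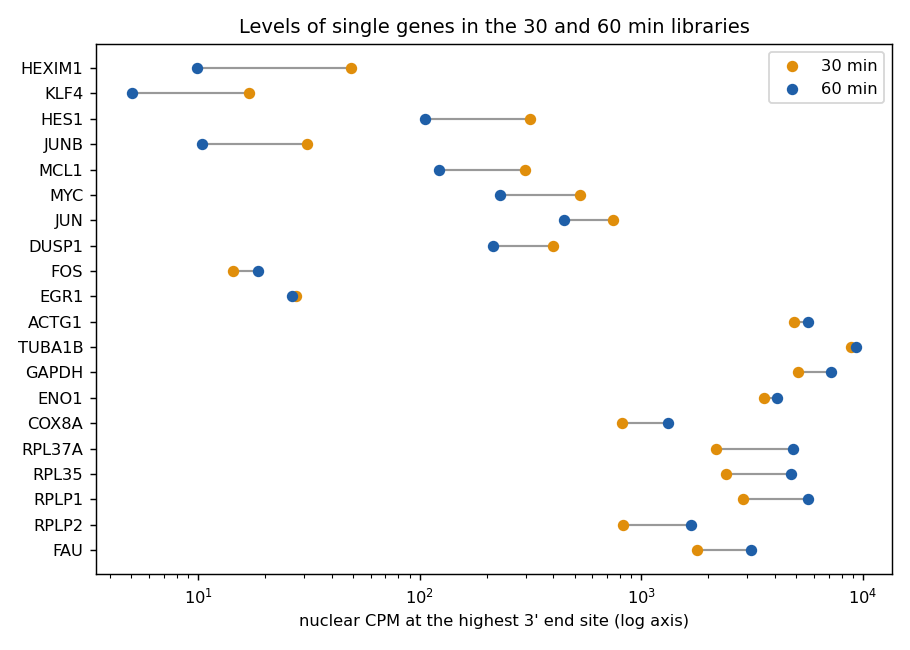
Nuclear CPM on a log axis for 20 genes, each at its highest 3′ end site within 1500 nt of the end in question. The 30 min library is in orange and the 60 min library in blue, 1 library each and before centring. HEXIM1 drops from 48.7 to 9.92 CPM and HES1 from 314.5 to 105.0, while RPL37A goes from 2180.3 to 4852.2 and EGR1 from 27.6 to 26.5.

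Ribosomal protein genes lay on the other side. Of 50 listed genes 45 had a kept site, 3 were under the CPM limit and 2, RPL10 and RPL27, had over 90% of their counts at 1 position. Of the 45, 42 lay above the median site, 13 were called higher and none lower, with a median log2 ratio of 0.81. That is 28.9% called higher, against 6.84% of all kept sites. Without centring 4 were higher and 1 was lower, and 37 of the 45 had a ratio above 1. These genes are abundant, with a median of 1106 CPM. The 24 genes of at least 1000 CPM had a median of 0.91, against 0.60 for all 77 sites of that range, of which they are members. The 14 genes of 100 to 1000 CPM had a median of 0.74, against 0.19 for all kept sites there. Of the 24 genes 10 were called higher, against 17 (22.1%) of the 77 sites, which include them. Of the 14 genes 2 were called higher, against 137 of 1437 kept sites of that range.

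RPL37A, a protein of the large subunit, went from 2180.3 CPM at 30 min to 4852.2 CPM at 60 min, 2.74-fold relative to the median (2.69 to 2.79). RPLP2, RPL28, RPL35 and RPLP1 had log2 ratios between 1.26 and 1.32. RPLP1, a protein of the ribosomal stalk, reached 5619 CPM at 60 min. Genes called higher also included RPL36, FAU, RPS9, RPL13 and RPS19, at up to 1.12 on the log2 scale. RPL23 was the lowest, at 20.2 CPM at 30 min and 9.43 at 60 min and a log2 ratio of -0.80; RPS18 and RPL38 were at -0.05 and -0.01. Many ribosomal protein genes have near-identical pseudogenes, and no source used here says how reads mapping to several places were treated, so levels are not compared between these genes.

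Ribosomal protein mRNAs are known to start with a run of pyrimidines, the 5′ terminal oligopyrimidine motif, and the starts of the genes called higher are shown for that reason, for the 10 of 13 with an entry in the RefSeq promoter table. The sequences are the 15 bases before and 15 bases from the RefSeq start (GRCh38.p14), 5′ to 3′ on the strand of the gene, with CTTTC or CTTTT in capitals where it begins and ends between 5 bases before and 10 bases from the start. RPL37A lies at chr2:216498829-216498858 (plus strand), RPLP2 at chr11:809952-809981 (plus), RPL28 at chr19:55385917-55385946 (plus), RPL35 at chr9:124861943-124861972 (minus), RPLP1 at chr15:69452803-69452832 (plus), RPL36 at chr19:5690280-5690309 (plus), FAU at chr11:65122120-65122149 (minus), RPS9 at chr19:54200843-54200872 (plus), RPS19 at chr19:41860240-41860269 (plus) and RPL13 at chr16:89560642-89560671 (plus). HEXIM1, the lowest regulator, lies at chr17:45148460-45148489 (plus) and is shown beside them.
RPL37A: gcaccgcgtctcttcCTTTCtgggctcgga
RPLP2: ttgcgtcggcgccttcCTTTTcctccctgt
RPL28: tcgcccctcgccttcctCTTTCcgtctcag
RPL35: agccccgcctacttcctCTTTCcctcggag
RPLP1: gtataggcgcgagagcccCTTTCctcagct
RPL36: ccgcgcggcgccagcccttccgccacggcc
FAU: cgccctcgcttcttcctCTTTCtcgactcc
RPS9: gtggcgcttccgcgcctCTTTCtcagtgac
RPS19: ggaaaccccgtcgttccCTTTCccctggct
RPL13: ggccctgctatcatcccagagtgcattgcg
HEXIM1: agaggactgggagacagcagttggaagttg

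Of the 45 ribosomal protein genes 35 had an entry in the RefSeq promoter table, and 20 of the 35 (57.1%) held CTTTC or CTTTT in that stretch. Of all 27305 promoters of that source 3.91% did, and on the opposite strand 2.16%. None of the 35 held it on the opposite strand. Of the 10 ribosomal protein genes called higher that had an entry 8 held it, and of the 25 not called 12 did. Among short-lived regulators 1 of 45 with an entry held it, among glycolysis genes 0 of 10, and among translation factors 3 of 11. The 20 with a match and the 15 without one both had a median log2 ratio of 0.85. A match describes the letters of this window only.

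Genes of energy metabolism lay above the median site as well. All 10 glycolysis genes with a kept site, of 12 listed, were above it, with a median log2 ratio of 0.69 and 1 call, the phosphofructokinase gene PFKL (87.4 and 151.5 CPM, 2.13-fold). That is 10% called higher, near the 6.84% of all kept sites. The 6 genes of 100 to 1000 CPM had a median of 0.73 and the 3 of at least 1000 CPM one of 0.79, against 0.19 and 0.60 for all kept sites of these ranges. GAPDH was at 5084 and 7132 CPM with a log2 ratio of 0.79, and the lowest, LDHA, was at 0.48. Among 15 genes of the respiratory chain and mitochondrial carriers 14 were above the median site, with a median of 0.79. Of the 15, 2 (13.3%) were called higher, against 6.84% of all kept sites. The 2 were the cytochrome c oxidase subunit COX7C (630.7 and 1074 CPM, 2.09-fold) and the ATP synthase subunit ATP5O (157.7 and 272.6 CPM, 2.13-fold). The carrier SLC25A5 was the exception, at -0.57. The 13 genes of these 15 between 100 and 1000 CPM had a median of 0.79, against 0.19 for all kept sites of that range. Of these 13 genes 2 were called higher, against 137 of the 1437 kept sites there.

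Other lists of the cell's core functions lay nearer to the median site. Without centring every log2 ratio is lower by 0.30, so a value between 0 and 0.30 then lies below 0, and no gene of the lists other than ribosomal protein genes and SOX12 was then called higher. Translation factors, with all 13 kept and none called, had a median of 0.09, from EIF1 at -0.58 to EIF3H at 0.55. Splicing factors and hnRNPs, with 13 kept and none called, had a median of 0.10. The SR proteins SRSF1, SRSF2 and SRSF7 were at -0.40, -0.30 and -0.46, while SRSF3 and SRSF6 were at 0.04 and 0.09. HNRNPU was at 0.83. Cytoskeletal genes had a median of 0.00 over 14, with TUBA1C lowest at -0.70 and the myosin light chain MYL6 called higher at 1.16. Cell cycle genes, 9 in all and none called, had a median of -0.03, and the cyclin CCNE1 was lowest at -0.86. Of 7 sterol and fatty acid genes 6 were below the median site, none was called, and FASN was the exception at 0.78.

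Single genes in the smaller lists stood apart from their lists. Among 12 chaperone genes the co-chaperone BAG3 was lower, at 65.6 and 26.3 CPM and a log2 ratio of -1.02. The stress-inducible HSPH1 and HSP90AA1 were higher, at 1.01 and 1.02, and the chaperone list's median was 0.15. Of 3 polyadenylation factors with a kept site NUDT21, a subunit of cleavage factor I, was lower at -1.23 (27.8 and 9.59 CPM), while CPSF6 and PCF11 were at 0.63 and 0.70. Among 8 noncoding RNAs the nuclear RNA NEAT1 was higher, at 317.1 and 590.2 CPM and 2.29-fold, and SNHG1, a host of small nucleolar RNAs, was lowest at -0.51. Calmodulins, histone variants and nucleolar proteins had a median of 0.32 over 10, with the histone gene H3F3B at -0.71. The polyamine and ubiquitin genes, 5 in all, had a median of 0.11, with ODC1 at -0.28 and OAZ1 at 0.58.

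**Figure D3:**
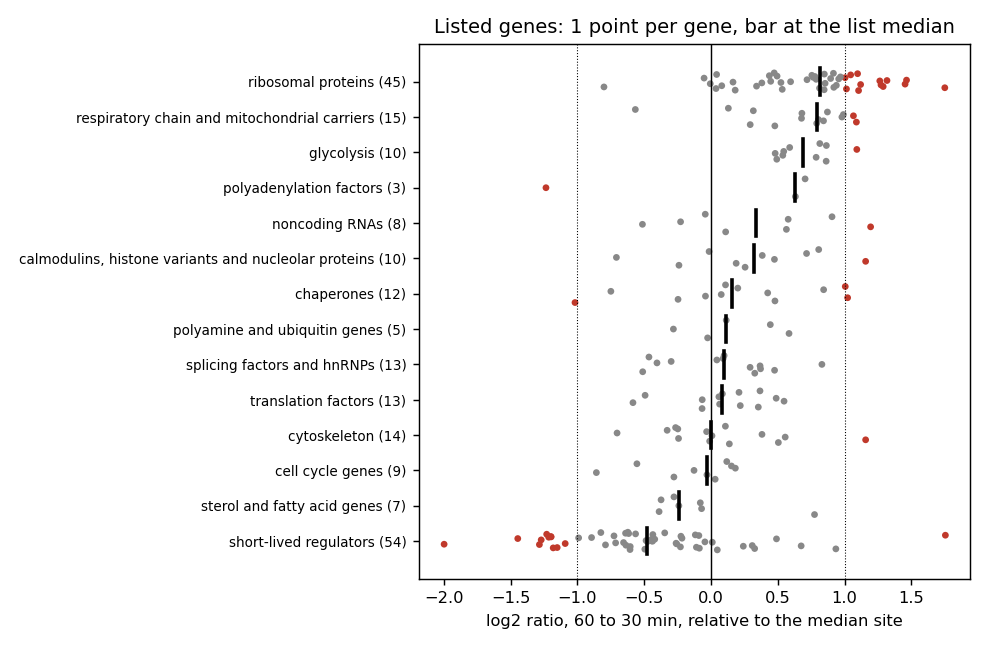
Each point is 1 gene's log2 ratio of 60 to 30 min relative to the median site, in 14 lists ordered by their medians (black bars), with the number of genes with a kept site in brackets; red points were called and dotted lines mark 2-fold. Short-lived regulators have the lowest median at -0.48 and ribosomal protein genes the highest at 0.81.

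The lowest ratios of all kept sites with a mean of at least 30 CPM were at ends of regulatory and housekeeping genes alike. The lowest was an upstream end of ID4, an inhibitor of differentiation, at chr6:19840052 on the plus strand (hg19 numbering), with 554 counts at 30 min and 47 at 60 min, or 57.4 and 7.64 CPM. It was 6.11-fold lower relative to the median, with an interval from 4.53 to 8.41. An end of MAD2L1BP, which binds the spindle checkpoint protein MAD2, was 6.08-fold lower (93.6 and 12.5 CPM), and that of the RNA polymerase III subunit POLR3K 4.93-fold lower (71.0 and 11.7 CPM). C18orf21, the zinc finger gene ZNF526 and CDCA4 followed, at 4.33, 4.32 and 4.09-fold. The others of the 10 were BAMBI, a pseudoreceptor of the TGF-beta family, the homeobox gene MSX1, TRIM13 and ALAS1, the rate-limiting enzyme of haem synthesis, at 3.39 to 3.65-fold lower. In these 10 the 30 min library was at 53.6 to 129.1 CPM and the 60 min library at 7.64 to 25.7 CPM. All 10 passed the limit of 30 CPM only through the 30 min library, so their high values there follow from the choice.

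Of the 10 highest, 4 could be named. RNASEH2C, a subunit of ribonuclease H2, was at 80.5 CPM at 30 min and 309.0 at 60 min, 4.72-fold (4.34 to 5.14). ATP5D, a subunit of ATP synthase, was at 87.5 and 299.9 CPM, 4.21-fold. An end of YJEFN3 was 3.89-fold and an upstream end of RPL36 3.81-fold higher.

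The other 6 stay unnamed, as no gene could be given with certainty. The highest was at chr17:59026637 on the minus strand, with 13.0 CPM at 30 min and 65.0 at 60 min, 6.18-fold. This site had 4 counts in the input library, and those at chr21:45362974, chr9:99308749 and chr19:41902569, all on the minus strand, had 8, 22 and 1. Those at chr11:869763 and chr21:44475168 on the minus strand had 1733 and 836. Some of these sites came near the limit on the share of counts at 1 position. That share was 89.0% at chr9:99308749, 82.7% at chr21:45362974 and 79.5% at chr19:41902569. It was 59.4% at chr17:59026637, 31.7% at chr11:869763 and 49.8% at chr21:44475168. Over all kept sites, 13.9% of sites called higher had under 1 CPM in the input, against 3.37% of sites called lower and 1.70% of the rest. The part of such sites in the count of higher sites was not tested.

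The most abundant site of both libraries was an end of CENPB, the gene of a centromere protein. It took 3.83% of nuclear counts at 30 min and 6.94% at 60 min, with 369217 and 426801 counts, and was 2.23-fold higher relative to the median. A second end 29 nt upstream, kept apart by the merging distance of 24 nt, was 1.66-fold higher. With merging within 50 nt it was not a site of its own, and the main site had a log2 ratio of 1.12, against 1.16. TUBA1B, at 8795 and 9317 CPM, had a log2 ratio of 0.38, and ACTG1, at 4889 and 5638 CPM, one of 0.50.

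Where a gene had several ends, these could differ in their ratio. In ID4 the upstream end was 6.11-fold lower, the end 862 nt downstream, at 160.5 and 82.9 CPM, was 1.57-fold lower, and the last one, 2372 nt downstream, was at 33.7 and 29.3 CPM and did not differ from the median site beyond counting error (ratio 1.07, 0.886 to 1.29). In HEXIM1 the downstream end, 1447 nt away, was 1.66-fold lower, against 3.99-fold at the upstream end. SOX12, a transcription factor of the SRY family, had 516.4 and 436.0 CPM at its upstream end, a ratio of 1.04 (0.990 to 1.09). Its downstream end, 1494 nt away, had 95.1 and 260.9 CPM, a ratio of 3.37 (3.11 to 3.66). In each of these genes, chosen after their values were seen, the last end had the highest ratio.

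**Figure D4:**
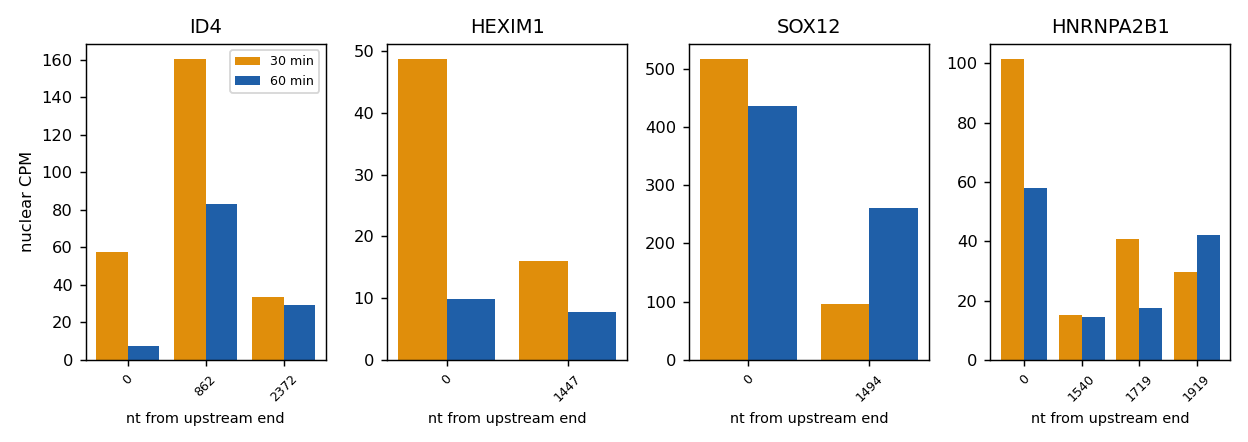
Nuclear CPM at the 3′ end sites of ID4, HEXIM1, SOX12 and HNRNPA2B1, ordered along the gene by distance in nt from the upstream end, with 30 min in orange and 60 min in blue; 1 library each, before centring. The upstream end of ID4 drops from 57.4 to 7.64 CPM, and the downstream end of SOX12 climbs from 95.1 to 260.9 CPM.

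Ends of the same strand with gaps of at most 2000 nt were joined as a locus, and the share of its counts at the outermost downstream end was compared. A locus can join the ends of different genes. The median change over 3135 loci was 0.27 percentage points. The share was higher at 60 min by 10 points or more, with a 95% interval (Newcombe) that excluded 0, in 280 loci, or 8.93%, and lower in 241, or 7.69%. The change went with the distance between the outermost ends. Over 1190 loci of under 500 nt the median change was -0.28 points, with 67 higher and 97 lower. Over 418 loci of 2000 nt or more it was 2.44 points, with 58 higher and 22 lower. That median was 1.54 points when loci were joined over gaps of up to 5000 nt.

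**Figure D5:**
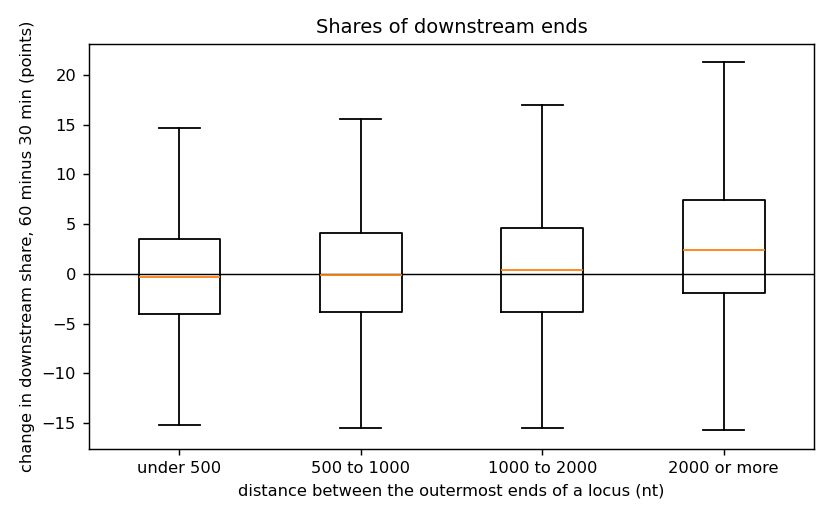
Change in the share of counts at the outermost downstream end, 60 minus 30 min in percentage points, for loci grouped by the distance between their outermost ends; boxes span the quartiles, orange lines are medians, and whiskers reach the last value within 1.5 box lengths. The medians run from -0.28 points under 500 nt to 2.44 points at 2000 nt or more.

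The 10 largest changes went both ways. In ENSA, which encodes an inhibitor of the phosphatase PP2A, the downstream end took 82.4% of 306 counts at 30 min and 28.6% of 185 at 60 min, a fall of 53.7 points (45.4 to 60.9). In TCFL5, a transcription factor gene, it took 84.3% and 40.8%, and in KHDRBS1, which encodes the RNA-binding protein Sam68, 97.6% and 62.1%. 2 unnamed loci, on chromosomes 13 and 12, changed by -39.0 and -33.4 points. In WDR26, a WD repeat gene, the downstream share went from 31.5% of 1105 counts to 69.0% of 701, a gain of 37.6 points (33.1 to 41.8). In VPRBP, a substrate receptor of the CUL4 ubiquitin ligase, it went from 56.8% to 87.7%. The unnamed loci among the largest gains, on chromosomes 16, 20 and 13, gained 33.6, 31.7 and 31.7 points.

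Among 86 loci that hold a listed gene, 7 (8.14%) had a higher and 6 (6.98%) a lower downstream share, near the 8.93% and 7.69% of all loci. In ID4 the share went from 13.4% to 24.4%, and HEXIM1 and SOX12 gained 19.4 and 21.9 points. PCF11, a subunit of the cleavage machinery, gained 24.1 points, from 49.7% of 181 counts to 73.8% of 103. HNRNPA2B1 gained 16.0 points, and DNAJA1 and HNRNPU gained 11.9 and 12.9 points, the latter with an interval from 1.38 to 23.6. The downstream share was lower in NPM1, the nucleophosmin gene, at 39.1% and 20.7%, in HSPA1B, at 54.1% and 37.5%, and in SCD, the stearoyl-CoA desaturase, at 28.1% and 15.4%. In OAZ1, RPL36 and GADD45B the change was -10.9, -10.7 and -10.3 points. In MYC the downstream of 2 ends 152 nt apart took 86.2% and 80.3%, and in MCL1 68.8% and 65.2%, both under the limit of 10 points.

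Over 4825 sites with a mean of at least 30 CPM the mean position at 60 min lay upstream of that at 30 min in 50.1%. The standard deviation of positions was smaller at 60 min in 62.9% of them, with medians of 2.53 nt at 30 min and 2.44 nt at 60 min. These values were not corrected for depth, which was 9652023 nuclear counts at 30 min and 6151986 at 60 min. The part of depth in this difference was not tested.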

How the data were processed

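The deposited values were raw read counts per stranded position, 1 table per library, per the labels and from whole-number values; the authors gave no normalization. The submitters' processing notes list cutadapt and Bowtie; no source used here states versions, the genome build or how reads mapping to several places were handled. Per the labels' protocols the 4sU libraries omitted the first poly(A) selection. Depth was 14159691 counts (30 min) and 8926568 (60 min).

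Positions within 24 nt of the highest summed position were merged, and nuclear CPM, exact intervals (Clopper-Pearson, scipy 1.17.1) and a floor of 3 counts were computed with Python 3.11.15. Loci needed ends of at least 20 counts and 5% of the locus, and 100 counts per library. The code was tested on simulated data. Alternatives covered scaling (edgeR 4.0.16 TMM factors among them), CPM limits, merging distance, the limit at 1 position, thinning and locus gaps.

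Members and lists were chosen with earlier results of these data known. Named were the 10 highest and 10 lowest sites of at least 30 CPM, the 5 most abundant, listed genes, and the 5 largest locus changes each way. The 3′ ends of listed genes were written from memory of hg19, and other names were added after values were seen; no hg19 annotation was used here. Some named results of the ribosomal protein list are not reported here.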

Additional observations from a re-analysis of the deposited data

Results flagged for a closer look

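The mitochondrial genome, kept out of the site comparison, took 31.8% of all counts at 30 min and 31.1% at 60 min, against 7.46% in the input library, which stands out as signal outside the main measurement. Sites with 90% or more of their counts at 1 position, also left out, took 0.559% of nuclear counts at 30 min and 1.46% at 60 min, against 0.184% in the input. Of these 372 sites 299 were called higher at 60 min, with a median log2 ratio of 2.14. The 62 sites just outside the limit, with 90 to 95% at 1 position, had a median of 1.71, and the 127 just inside it, with 80 to 90%, one of 0.13. Of these 127 sites 28 (22.0%) were called higher, against 6.84% of all kept sites, and 6 were called lower. Among the 23 of them with a mean of at least 50 CPM, 0 were called.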

How the results depend on the processing

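With 1 library per time, the counting intervals leave out the spread between cultures and captures, and no replicate could be left out. No paired analysis was possible because the groups hold 1 library each. Ratios depend on the scaling: plain nuclear CPM without centring shifts the median of all sites to -0.30 on the log2 scale, TMM factors to -0.02 and chrM in the total to -0.26. Without centring 339 sites were higher and 1625 lower, which is 3.13% and 15.0% of sites, and the medians of short-lived regulators and ribosomal protein genes were -0.78 and 0.51. With chrM in the total 268 sites were higher, and these medians were -0.75 and 0.53. Centring on sites of at least 50 CPM gave 0.67 for ribosomal protein genes. With a CPM limit of 1 there were 4138 higher and 3937 lower sites, with one of 30 there were 292 and 273, where the ribosomal protein median was 0.76. Locus gaps of at most 500 nt gave 132 higher and 143 lower loci, and gaps of at most 5000 nt gave 410 and 303, with a median change of 1.54 points for spans of 2000 nt or more. The sign of both list medians was kept under every setting run. The scaling settings move all ratios together by a shift smaller than either median, so they could hardly have changed it. For named sites 237 of 295 recomputed ratios stayed within their counting interval and 58 moved beyond it, none with a change of sign among called sites.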
